A study of Mus musculus with 9 samples.

Results

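Mitosis and kinetochore genes encode the machinery that condenses, aligns and separates chromosomes. Cyclins and their kinases start mitosis, condensin and topoisomerase shape the chromosomes, and kinetochores built on the centromere bind the spindle. The chromosomal passenger complex corrects faulty attachments, and the spindle assembly checkpoint holds back the anaphase-promoting complex (APC/C) until every chromosome is attached. Kinesins and crosslinkers then form the central spindle, where the cell divides. The transcripts of most of these genes are made shortly before division, so their level in bulk RNA depends on how many cells are dividing. A list of 50 such genes was drawn up by symbol. All 50 were among the 53801 genes of the count table and the 21890 protein-coding ones, and all 50 passed the filter that left 12538 genes to be tested.

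Male C57BL/6J mice, 10 to 12 weeks old, carried GL261 glioma cells implanted in the right striatum. The counts came from CD11b+ cells sorted out of the hemisphere with the tumor. By the paper these include microglia, infiltrating monocytes and macrophages, granulocytes, some dendritic cells and NK cells. OAT-1746, an oral inhibitor of arginase, was given by gavage at 50 mg/kg per dose, and an antibody to the checkpoint receptor PD-1 was injected at 2.5 mg/kg. A combination group (COMB) received both, and the control group (CTR) received saline. By the paper the inhibitor was dosed daily from the day after implantation, while the antibody was injected on a few days only, all before the sort. Cells were sorted on day 28 after implantation by the methods text, while a figure legend gives day 21. COMB had 3 libraries and each of the other groups had 2, which the paper calls biological replicates. Nothing says whether each is a separate animal or a pool, so the p-values measure only the spread between these samples.

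Library totals were 17490386 and 17729568 counts in CTR, 17380045 and 16784406 in OAT-1746, 14356928 and 18796479 in anti-PD-1, and 13048075, 16144518 and 14806017 in COMB, each in the order of the replicate numbers, as are all values below. The 50 genes together took 7784 and 8208 counts in CTR, 4849 and 2485 in OAT-1746, 3861 and 6587 in anti-PD-1, and 4377, 5199 and 5001 in COMB. With so few counts per gene, counting error is part of the spread of the rarest members: Ska1 and Cenpe had 0 counts in OAT-1746 replicate 2, which allows up to 3 counts, a limit that covers counting error only. Members below 1 CPM (counts scaled to the library's normalized total) numbered 1 and 2 in CTR, 5 and 18 in OAT-1746, 8 and 3 in anti-PD-1, and 2, 3 and 2 in COMB.

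The sort label was set beside 4 transcripts of immune cells. Itgam, which encodes CD11b, was at 302 and 370.0 CPM in CTR, 445 and 446 in OAT-1746, 294 and 327 in anti-PD-1, and 366, 307 and 328 in COMB. Csf1r lay between 6300.0 and 11600.0 CPM, Ptprc between 379 and 760.0 CPM and Aif1 between 154 and 399 CPM over the 9 libraries. All 4 were present in every library, which does not measure how pure the sort was. Csf1r was highest, and Ptprc and Aif1 lowest, in OAT-1746 replicate 2.

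OAT-1746 replicate 2 stood apart from the other 8 libraries, in the 50 genes and over all genes. Its correlation with each other library in log2 CPM over all genes tested lay between 0.911 and 0.956, while every other library reached at least 0.976 with another. These are correlations across genes, which are not independent replicates, and carry no p-value. The median member lay -2.10 below the CTR mean on the log2 scale in that library and -0.79 in OAT-1746 replicate 1, while the median over all genes tested was 0.03 and -0.01. The member medians were -0.94 and -0.45 in anti-PD-1 and -0.58, -0.43 and -0.45 in COMB, against 0.02 and 0.04 and then -0.04, 0.02 and 0.00 for all genes. Of the 50 genes, 43 had their lowest level of all 9 libraries in OAT-1746 replicate 2 (31.6% of all genes tested did), 3 in OAT-1746 replicate 1, 2 in anti-PD-1 replicate 1, and 1 each in COMB replicates 1 and 2. The highest level fell in CTR for 39 genes, 18 in replicate 1 and 21 in replicate 2 (10.5% and 7.39% of all genes tested). Summed over the members, the level was 468 and 483 CPM in CTR, 282 and 142 in OAT-1746, 269 and 371 in anti-PD-1, and 325, 343 and 354 in COMB. Every treated library was below both CTR libraries in this sum, and the OAT-1746 and anti-PD-1 groups overlapped.

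**Figure D1:**
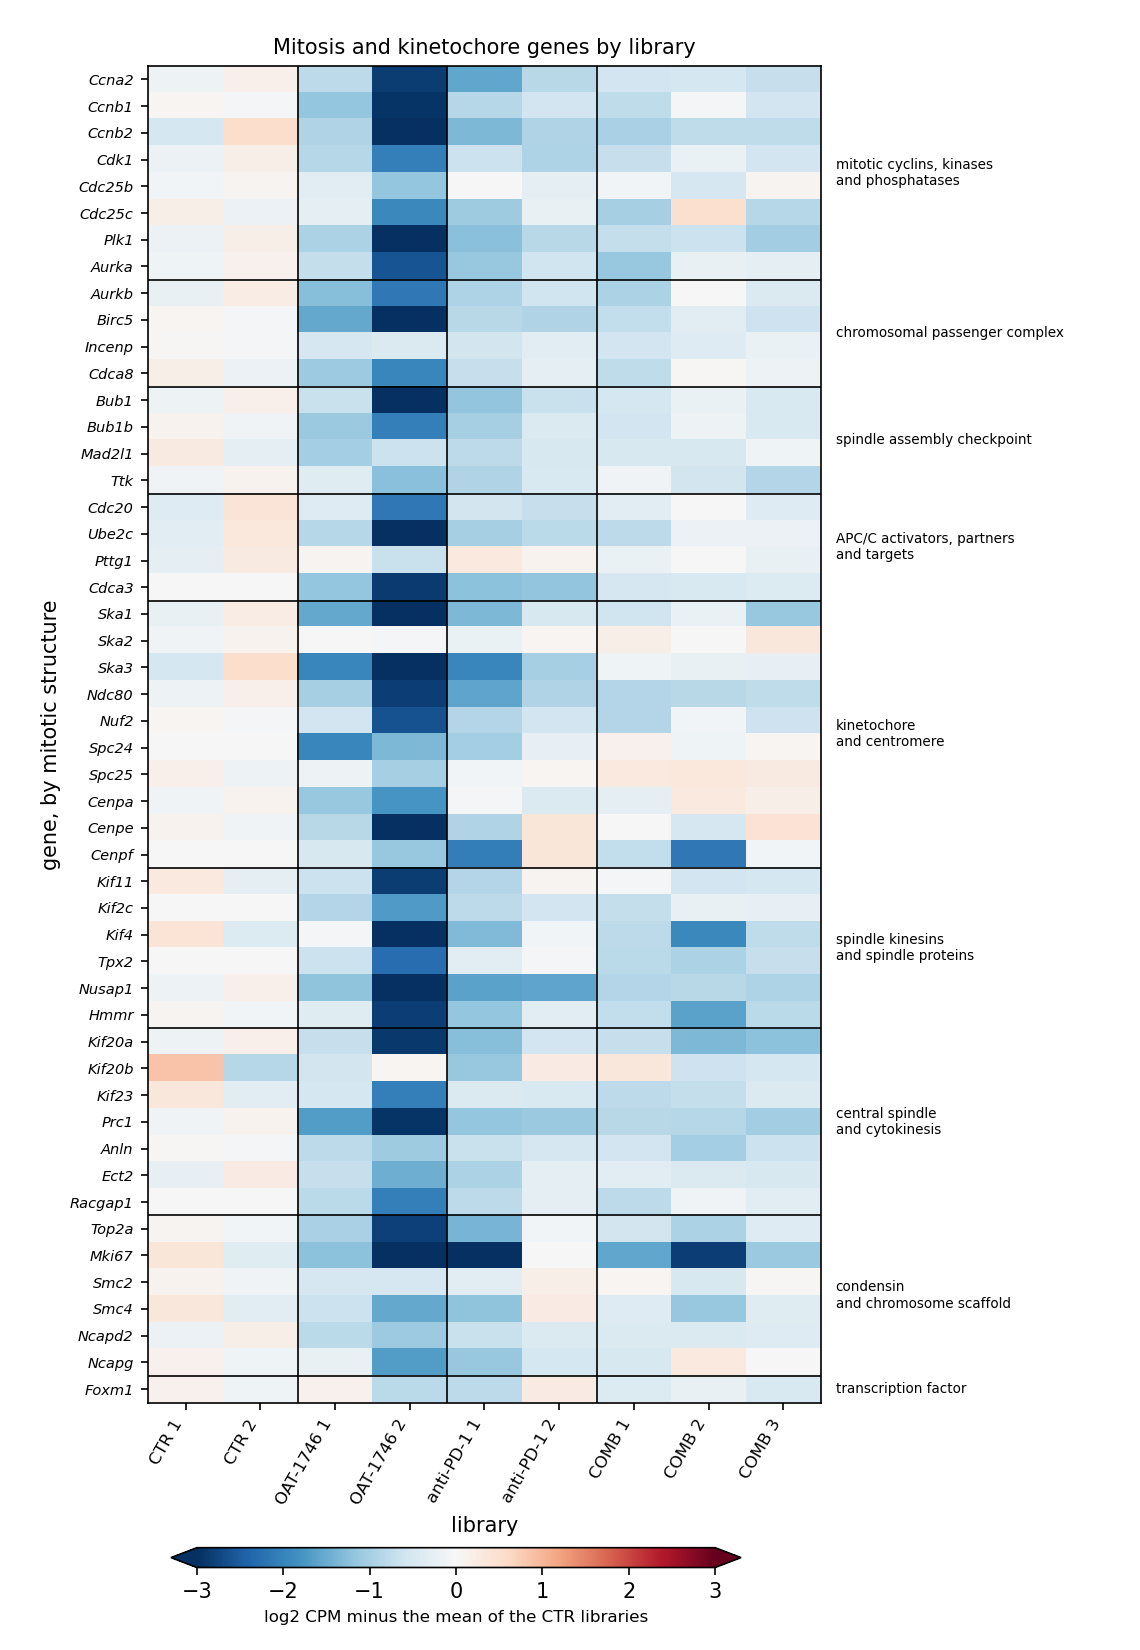
Each cell is the log2 CPM of 1 gene (vertical axis, by mitotic structure) in 1 of the 9 libraries (horizontal axis) minus the mean of the 2 CTR libraries, blue lower and red higher. OAT-1746 replicate 2 is the bluest column, with 43 of the 50 genes at their lowest there.

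Does the inhibitor alone shift these genes? In OAT-1746 against CTR, 0 of the 50 genes were called at an adjusted p under 0.05 by edgeR's quasi-likelihood test with Benjamini-Hochberg adjustment (0% of all genes tested), with adjusted p from 0.06 to 0.981. At an unadjusted p under 0.05, 33 were lower and 0 higher (16.2% of all genes tested were lower). DESeq2 called 24 lower and 0 higher (7.88% of the genes it tested were called lower). The direction was lower for 50 of 50 by TMM scaling, for 49 when only library size was used and for 48 after a loess correction for length and GC content. It was lower for 48 without CTR replicate 2 and for 47 without OAT-1746 replicate 2. The median log2 fold change was -1.34, with quartiles of -1.72 and -0.95 and a range from -3.13 to -0.01, against a median of 0.01 over all genes tested. Both OAT-1746 libraries were below both CTR libraries for 45 members (32.1% of all genes tested). Single libraries moved these values: without OAT-1746 replicate 1, edgeR called 36 members lower, beside 28.2% of all genes tested in either direction, and the median was -2.25, and without OAT-1746 replicate 2 it called 0 and the median was -0.80. The 33 at an unadjusted p under 0.05 became 22 without CTR replicate 2 and 43 without OAT-1746 replicate 1, the lowest and highest of the leave-outs (24.8% and 41.6% of all genes in either direction, against 32.3% with every library). Leaving out COMB replicate 1 gave 2 calls, Cenpa and Prc1, beside 2.23% of all genes. Leaving out COMB replicate 2 or 3 gave 0.

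The antibody alone was compared with the same CTR libraries. No member was called in anti-PD-1 against CTR: edgeR called 0 of 50 (0% of all genes tested), with adjusted p from 0.951 to 0.996, and DESeq2 called 0 lower (0%). At an unadjusted p under 0.05, 9 were lower (1.94% of all genes tested): Incenp, Mad2l1, Cdca3, Ska3, Ndc80, Nusap1, Prc1, Anln and Ncapd2. The median log2 fold change was -0.67 against 0.02 over all genes. Of the 50, 49 were lower, 48 when only library size was used and 40 without anti-PD-1 replicate 1. Both anti-PD-1 libraries lay below both CTR libraries for 35 members (16.9% of all genes tested). The count of 9 depended on single libraries. It was 5 without CTR replicate 1, 3 without CTR replicate 2, 23 without OAT-1746 replicate 1, 24 without OAT-1746 replicate 2 and 2 without anti-PD-1 replicate 1. The share of all genes at that p in either direction was 5.12% with every library and 4.51%, 3.81%, 7.43%, 7.56% and 2.59% in these 5 leave-outs. The OAT-1746 libraries enter this count through the spread that all 4 groups share.

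Both agents together were also set against CTR. In COMB against CTR edgeR called 0 of 50 (0% of all genes tested), with adjusted p from 0.689 to 0.996, and DESeq2 called 0 lower (0.134% of the genes it tested). Incenp, Prc1, Anln and Ncapd2 were lower at an unadjusted p under 0.05 (3.37% of all genes tested). The median log2 fold change was -0.44 against -0.01 over all genes, 45 of 50 were lower, and in 29 the 3 COMB libraries were all below both CTR libraries (15.8% of all genes tested). The 4 genes at an unadjusted p under 0.05 became 2 without CTR replicate 2, COMB replicate 2 or COMB replicate 3, 16 without OAT-1746 replicate 1 and 14 without OAT-1746 replicate 2. The share of all genes in either direction, 6.58% with every library, was 6.52%, 3.74%, 3.58%, 9% and 8.84% in the same order.

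The antibody added to the inhibitor was compared with the inhibitor alone, and this comparison held the only members that edgeR called. In COMB against OAT-1746, edgeR called 7 of 50 members, all higher (6.84% of all genes tested were called higher and 15.8% in either direction), namely Aurkb, Cdca8, Bub1b, Ska3, Spc24, Cenpa and Prc1. DESeq2 called 13 higher (13.6% of the genes it tested), which included all 7. At an unadjusted p under 0.05, 17 members were higher (18.3% of all genes tested). The median log2 fold change was 0.86 against 0.00 over all genes. Of the 50, 48 were higher, 46 when only library size was used and 39 without OAT-1746 replicate 2. In 28 the 3 COMB libraries were all above both OAT-1746 libraries (25% of all genes tested). The 7 calls depended on single libraries and on the model. Their number was 0 when only the groups compared were fitted (0.245% of all genes called) and 0 with a replicate block (0.016%). It was 0 without OAT-1746 replicate 2, COMB replicate 2 or COMB replicate 3, 1 (Cenpa) without CTR replicate 1 or CTR replicate 2, and 2 (Spc24 and Cenpa) without anti-PD-1 replicate 1 or 2. There were 6 without COMB replicate 1, where 23.4% of all genes were called in either direction, and 35, 6 of them shared with the 7, without OAT-1746 replicate 1, where 31.4% were. Of all genes, 5.68% and 6.28% were called without CTR replicate 1 and 2, 6.67% and 7.18% without anti-PD-1 replicate 1 and 2, and at most 0.21% in the 3 leave-outs with 0 members. The count at an unadjusted p under 0.05 was 38 without OAT-1746 replicate 1, 10 without OAT-1746 replicate 2 and 11 without COMB replicate 2 (43.8%, 19.4% and 25% of all genes in either direction, against 37.1% with every library). The median was 1.78 without OAT-1746 replicate 1 and 0.29 without replicate 2.

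Whether the effect of OAT-1746 differed with and without the antibody was tested by the interaction, its effect with the antibody minus its effect without. No member passed edgeR's adjusted threshold there, 0 of 50 (0.359% of all genes tested), with adjusted p from 0.0711, for Prc1, to 0.94. At an unadjusted p under 0.05, 27 members were higher (11.8% of all genes tested), and DESeq2 called 15 higher (3.81% of the genes it tested). The median was 1.53 against -0.02 over all genes, with 49 of 50 members above 0. Without OAT-1746 replicate 1 edgeR called 34 members, beside 21.3% of all genes in either direction, and the median was 2.58, without OAT-1746 replicate 2 the median was 0.97, and without COMB replicate 1 Cenpa was called, beside 3.4% of all genes. The 27 became 16 without CTR replicate 2 and 15 without anti-PD-1 replicate 1 (21.1% and 18.8% of all genes in either direction, against 26.2% with every library). The interaction, the 3 comparisons with CTR and COMB against OAT-1746 share libraries, so they are not independent of one another.

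**Figure D2:**
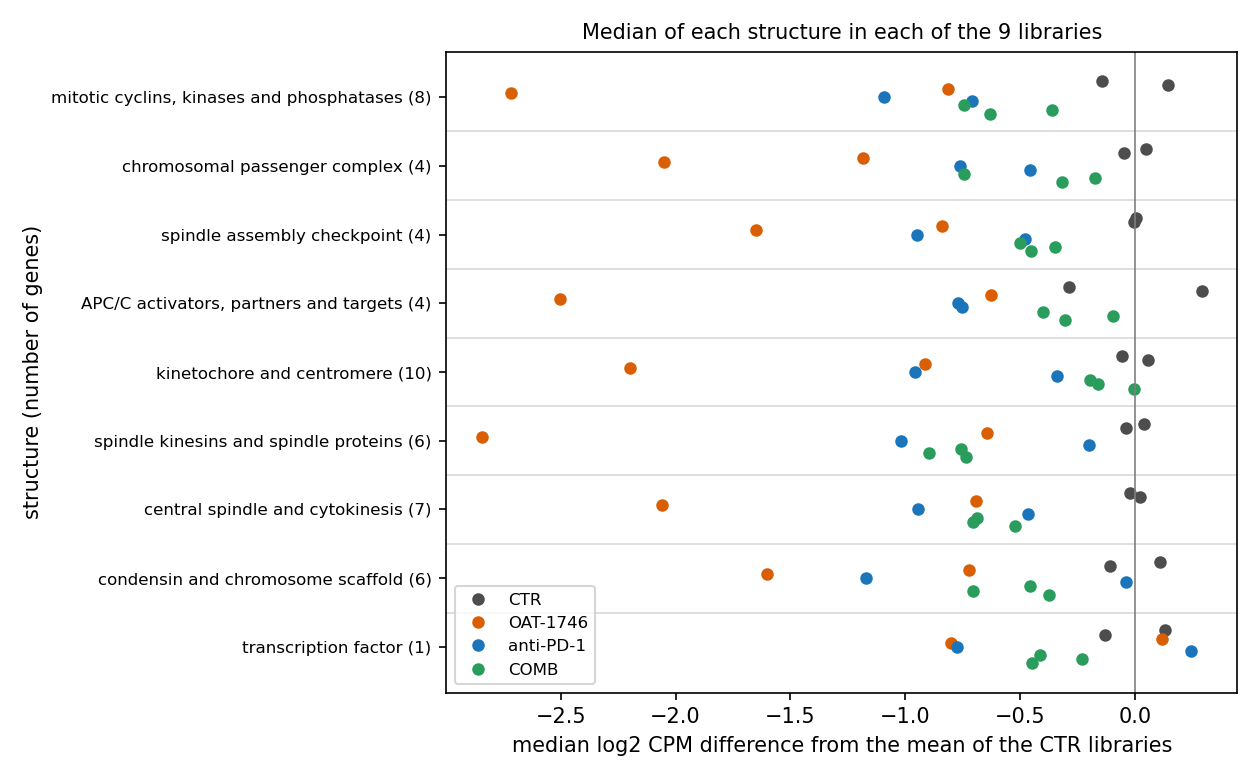
Each point is the median, over the genes of a structure (vertical axis, number of genes in brackets), of the log2 CPM difference from the mean of the CTR libraries (horizontal axis) in 1 library, coloured by group. In every structure the lowest point is OAT-1746 replicate 2, from -2.84 for spindle kinesins to -0.80 for Foxm1.

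Promoters of mitotic genes often carry a cell cycle homology region (CHR) bound by the DREAM and MuvB complexes, with CCAAT boxes bound by NF-Y upstream, and some carry E2F sites. In RefSeq promoters from 250 bases before to 50 after the start, 40 of the 50 members had 42 promoters. A CHR, spelled TTTGAA or TTCGAA on either strand, was found in 81.0% of the 42, against 19.2% of all 32851 promoters. CCAAT on either strand was in 76.2% against 37.4%, at 2 or more places in 50% against 11.7%, and together with a CHR in 69.0% against 7.52%. The E2F spellings TTTCGCGC, TTTGGCGC and TTTCCCGC were in 7.14% against 1.84%. Birc5, Mad2l1, Nuf2, Nusap1 and Pttg1 had none of these motifs, 11.9% of the promoters against 50% of all. A match describes the letters and not binding. Of the 7 genes called in COMB against OAT-1746, 5 had a promoter sequence, printed 5' to 3' from GRCm38.p6 (RefSeq) in lower case with the motifs in capitals. The Cdca8 promoter, on the minus strand at chr4:124936868-124937167, has 1 CHR and 4 CCAAT boxes, of which the last shares letters with the CHR (TTTGAATTGG). That of Bub1b, on the plus strand at chr2:118597961-118598260, has 2 CHR and 1 CCAAT box. Ska3, on the minus strand at chr14:57826114-57826413, has 1 CHR in the reverse spelling TTCAAA and no CCAAT box. The Cenpa promoter, on the plus strand at chr5:30666636-30666935, has 1 CHR and 2 CCAAT boxes. Prc1, on the plus strand at chr7:80294201-80294500, has 1 CHR and 1 CCAAT box, and its other promoter overlaps this one.
Cdca8: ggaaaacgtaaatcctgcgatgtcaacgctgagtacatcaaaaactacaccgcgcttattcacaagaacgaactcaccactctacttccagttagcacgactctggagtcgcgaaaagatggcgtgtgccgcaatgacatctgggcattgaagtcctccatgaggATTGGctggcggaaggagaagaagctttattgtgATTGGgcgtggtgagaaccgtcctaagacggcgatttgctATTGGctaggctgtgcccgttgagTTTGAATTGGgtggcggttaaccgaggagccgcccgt
Bub1b: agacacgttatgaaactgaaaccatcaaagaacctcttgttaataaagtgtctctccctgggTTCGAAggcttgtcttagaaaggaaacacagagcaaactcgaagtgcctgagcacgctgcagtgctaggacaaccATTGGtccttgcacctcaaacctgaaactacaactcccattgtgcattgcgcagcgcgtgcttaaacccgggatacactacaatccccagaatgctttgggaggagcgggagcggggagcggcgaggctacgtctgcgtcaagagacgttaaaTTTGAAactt
Ska3: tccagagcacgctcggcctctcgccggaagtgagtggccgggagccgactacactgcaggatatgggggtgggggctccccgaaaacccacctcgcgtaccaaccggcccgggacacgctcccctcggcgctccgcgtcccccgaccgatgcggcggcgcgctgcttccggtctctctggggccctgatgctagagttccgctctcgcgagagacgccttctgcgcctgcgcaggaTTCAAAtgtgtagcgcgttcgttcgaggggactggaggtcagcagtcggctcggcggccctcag
Cenpa: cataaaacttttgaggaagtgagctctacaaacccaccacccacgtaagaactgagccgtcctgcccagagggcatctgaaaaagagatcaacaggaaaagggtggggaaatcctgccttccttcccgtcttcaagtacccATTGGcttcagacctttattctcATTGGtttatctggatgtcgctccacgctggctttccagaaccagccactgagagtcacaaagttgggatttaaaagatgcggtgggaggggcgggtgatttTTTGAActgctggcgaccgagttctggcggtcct
Prc1: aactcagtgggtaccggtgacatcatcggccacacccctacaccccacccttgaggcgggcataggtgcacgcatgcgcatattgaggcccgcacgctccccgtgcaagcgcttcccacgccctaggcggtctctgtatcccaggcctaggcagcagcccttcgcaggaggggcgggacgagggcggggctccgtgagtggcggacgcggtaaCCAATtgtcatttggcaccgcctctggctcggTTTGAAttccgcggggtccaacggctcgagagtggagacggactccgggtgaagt

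The mitotic cyclins, kinases and phosphatases start and time mitosis. Their 8 members had a median log2 fold change of -1.45 in OAT-1746 against CTR (-1.89 to -0.71), -0.83 in anti-PD-1 against CTR, -0.50 in COMB against CTR and 0.88 in COMB against OAT-1746. The median lay at -0.81 and -2.72 from CTR in the OAT-1746 libraries, -1.09 and -0.71 in anti-PD-1, and -0.75, -0.36 and -0.63 in COMB. Ccna2, the cyclin of late S phase and mitotic entry, was at 16.5 and 20.8 CPM in CTR, 10.8 and 2.46 in OAT-1746, 6.2 and 10.4 in anti-PD-1, and 12.5, 12.7 and 11.5 in COMB. Both CTR libraries were highest, and the 3 COMB libraries lay above both OAT-1746 and both anti-PD-1 libraries. Its log2 fold change in OAT-1746 against CTR was -1.50 (SE 0.52, adjusted p 0.0984 by edgeR's quasi-likelihood test with Benjamini-Hochberg adjustment). Ccnb2, a partner of Cdk1, was at 6.61 and 13.7 CPM in CTR, 5.06 and 0.801 in OAT-1746, 3.69 and 5.02 in anti-PD-1, and 4.82, 5.61 and 5.6 in COMB. CTR was above every treated library, and OAT-1746 replicate 1 lay within the range of COMB. The difference from CTR was -1.79 (SE 0.65) with OAT-1746. Plk1, the polo kinase of spindle assembly, was at 9.37 and 12.1 CPM in CTR, 5.47 and 1.03 in OAT-1746, 4.39 and 5.92 in anti-PD-1, and 6.38, 6.73 and 5.1 in COMB. Again CTR was highest and OAT-1746 replicate 2 lowest, and the treated groups overlapped. DESeq2 called Ccna2, Ccnb1, Ccnb2, Cdk1 and Plk1 lower with OAT-1746 (7.88% of the genes it tested), and edgeR called 7 of the 8 without OAT-1746 replicate 1, beside 28.2% of all genes in either direction.

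The chromosomal passenger complex corrects attachments at the centromere and moves to the central spindle in anaphase. Its 4 members had a median log2 fold change of -1.61 in OAT-1746 against CTR, -0.64 in anti-PD-1 against CTR, -0.41 in COMB against CTR and 1.26 in COMB against OAT-1746. Aurkb, its kinase (ENSMUSG00000020897, chr11:69045647-69051664, GRCm38), was at 8.59 and 11.8 CPM in CTR, 4.07 and 2.17 in OAT-1746, 5.23 and 6.65 in anti-PD-1, and 5.19, 10 and 7.37 in COMB. Both OAT-1746 libraries were below the 7 others, and COMB overlapped with CTR and anti-PD-1. Aurkb rose by a log2 fold change of 1.27 (SE 0.37) in COMB against OAT-1746, with an adjusted p of 0.0473 by edgeR's quasi-likelihood test with Benjamini-Hochberg adjustment. Over the 20 alternatives the fold change ran from 0.90 to 1.80 and the adjusted p from 0.00835 to 0.252, and of the 9 libraries left out in turn only OAT-1746 replicate 1 and COMB replicate 1 left it called. Cdca8, the borealin subunit (ENSMUSG00000028873, chr4:124918465-124939311), was at 8.17 and 6.35 CPM in CTR, 3.32 and 1.77 in OAT-1746, 4.39 and 5.86 in anti-PD-1, and 4.23, 7.39 and 6.45 in COMB. OAT-1746 was lowest without overlap, and CTR and COMB overlapped. It rose by 1.24 (SE 0.36) in COMB against OAT-1746, with an adjusted p of 0.0473 by edgeR's quasi-likelihood test with Benjamini-Hochberg adjustment and a range of 0.00931 to 0.252 over the alternatives. Cdca8 too was called only without OAT-1746 replicate 1 or COMB replicate 1 among the leave-outs, where the fold change ran from 0.87 to 1.77. Birc5, survivin, was at 6.91 and 6.41 CPM in CTR, 2.21 and 0.401 in OAT-1746, 3.69 and 3.49 in anti-PD-1, and 3.93, 5.21 and 4.25 in COMB. CTR was above and OAT-1746 below all other libraries, with a log2 fold change between them of -2.35 (SE 0.56). Incenp, the scaffold subunit, was at 20.4 and 19.2 CPM in CTR, 13.9 and 14.8 in OAT-1746, 13.4 and 15.8 in anti-PD-1, and 13.3, 15.1 and 17.4 in COMB. CTR was highest, and the 3 treated groups overlapped. DESeq2 called Aurkb, Birc5 and Cdca8 lower in OAT-1746 against CTR (7.88% of the genes it tested).

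The spindle assembly checkpoint delays anaphase while a kinetochore is unattached. Over its 4 members the median log2 fold change was -1.18 in OAT-1746 against CTR, -0.71 in anti-PD-1 against CTR, -0.40 in COMB against CTR and 0.79 in COMB against OAT-1746. Bub1b, the BubR1 subunit of the checkpoint complex (ENSMUSG00000040084, chr2:118598211-118641591), was at 16.8 and 14.5 CPM in CTR, 7.16 and 3.66 in OAT-1746, 7.8 and 11.5 in anti-PD-1, and 10.4, 13.9 and 11.3 in COMB. CTR was highest and OAT-1746 lowest, neither overlapping with another group. It rose by 1.14 (SE 0.31) in COMB against OAT-1746, with an adjusted p of 0.0412 by edgeR's quasi-likelihood test with Benjamini-Hochberg adjustment and a range of 0.00567 to 0.222 over the alternatives. The fold change was 0.74 without OAT-1746 replicate 2 and 1.70 without OAT-1746 replicate 1, and among the leave-outs only OAT-1746 replicate 1 and COMB replicate 1 left Bub1b called. Mad2l1, which is turned over at unattached kinetochores, was at 15.4 and 10.5 CPM in CTR, 6.23 and 8.13 in OAT-1746, 7.32 and 9.02 in anti-PD-1, and 9.12, 9.04 and 11.6 in COMB. OAT-1746 replicate 1 was lowest here, and COMB replicate 3 lay between the CTR libraries. The log2 fold change of Mad2l1 in OAT-1746 against CTR was -0.85 (SE 0.26). DESeq2 called Mad2l1 and Bub1b lower (7.88% of the genes it tested). Without OAT-1746 replicate 1 the edgeR calls were Bub1 and Bub1b, beside 28.2% of all genes in either direction.

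Activators, partners and targets of the APC/C gave a median log2 fold change of -1.36 over 4 members in OAT-1746 against CTR, -0.82 in anti-PD-1 against CTR, -0.33 in COMB against CTR and 1.03 in COMB against OAT-1746. Pttg1, securin, had the highest level per length of the 50, a mean RPKM, which scales reads by depth and mRNA length, of 29.5 against 7.92 for Ube2c. Its levels were 24 and 34.5 CPM in CTR, 30.6 and 18.1 in OAT-1746, 35.2 and 31.1 in anti-PD-1, and 25.1, 28.4 and 24.7 in COMB. Both anti-PD-1 libraries lay above OAT-1746 and COMB, the other pairs of groups overlapped, and OAT-1746 replicate 2 was lowest. Its log2 fold change in OAT-1746 against CTR was -0.26 (SE 0.26), and it was 0.015 without CTR replicate 2, 0.079 without OAT-1746 replicate 2 and 0.178 after the loess correction. Ube2c, the ubiquitin-conjugating partner, was at 9.01 and 14.1 CPM in CTR, 6.17 and 1.32 in OAT-1746, 5.57 and 6.37 in anti-PD-1, and 6.53, 9.96 and 9.93 in COMB. OAT-1746 was below CTR and COMB and overlapped with anti-PD-1. Cdc20, the activator held by the checkpoint, was at 5.71 and 9.76 CPM in CTR, 5.65 and 1.6 in OAT-1746, 5.09 and 4.56 in anti-PD-1, and 6.01, 7.46 and 5.67 in COMB. OAT-1746 replicate 1 was close to the lowest CTR and COMB libraries, and replicate 2 was far below. DESeq2 called Ube2c and Cdca3 lower with OAT-1746 (7.88% of the genes it tested), and edgeR called these and Cdc20 without OAT-1746 replicate 1, beside 28.2% of all genes in either direction.

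Kinetochore and centromere genes formed the largest structure, with 10 members. Their median log2 fold change was -1.59 in OAT-1746 against CTR, from -3.13 for Ska3 to -0.01 for Ska2, then -0.50 in anti-PD-1 against CTR, -0.15 in COMB against CTR and 1.21 in COMB against OAT-1746. The median lay at -0.91 and -2.20 from CTR in the OAT-1746 libraries, -0.96 and -0.34 in anti-PD-1, and -0.20, -0.16 and -0.01 in COMB. DESeq2 called Ska3, Ndc80, Spc24 and Cenpa lower with OAT-1746 (7.88% of the genes it tested), and edgeR called 6 of the 10 without OAT-1746 replicate 1, beside 28.2% of all genes in either direction.

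Cenpa, the histone variant that marks the centromere (ENSMUSG00000029177, chr5:30666777-30674830), was at 8.47 and 9.88 CPM in CTR, 4.07 and 2.58 in OAT-1746, 8.78 and 6.76 in anti-PD-1, and 7.57, 11.2 and 10.4 in COMB. Both OAT-1746 libraries were below the 7 others, among which the groups overlapped. It rose by 1.54 (SE 0.28) in COMB against OAT-1746, the smallest adjusted p of the 50 at 0.0211 by edgeR's quasi-likelihood test with Benjamini-Hochberg adjustment, with a range of 6.29e-05 to 0.217 over the 20 alternatives and a call in 14 of them. The leave-outs that lost the call were OAT-1746 replicate 2, COMB replicate 2 and COMB replicate 3, where the fold change was 1.26, 1.43 and 1.49. Its log2 fold change in OAT-1746 against CTR was -1.46 (SE 0.30), which DESeq2 called and which edgeR called without OAT-1746 replicate 1 or without COMB replicate 1. Cenpf and Cenpe, large proteins of the outer kinetochore corona, had the lowest levels per length of the 50, with means of 0.137 and 0.161 RPKM.

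The Ska complex couples kinetochores to shortening microtubules. Ska3 (ENSMUSG00000021965, chr14:57806561-57826185) was at 1.14 and 2.53 CPM in CTR, 0.349 and 0.0572 in OAT-1746, 0.348 and 0.789 in anti-PD-1, and 1.56, 1.45 and 1.42 in COMB. The OAT-1746 libraries held 6 and 1 counts, below CTR and COMB and overlapping with anti-PD-1. Ska3 rose by 2.82 (SE 0.74) in COMB against OAT-1746, with an adjusted p of 0.0391 by edgeR's quasi-likelihood test with Benjamini-Hochberg adjustment and a range of 0.00447 to 0.221 over the alternatives. The fold change was 2.07 without OAT-1746 replicate 2 and 4.51 without OAT-1746 replicate 1, and Ska3 was called only without OAT-1746 replicate 1 or COMB replicate 1 among the leave-outs. Ska1 was at 0.901 and 1.29 CPM in CTR, 0.291 and 0 in OAT-1746, 0.348 and 0.733 in anti-PD-1, and 0.668, 0.924 and 0.425 in COMB. OAT-1746 was lowest without overlap, and CTR overlapped with COMB. Ska2 was at 2.58 and 3.06 CPM in CTR, 2.85 and 2.75 in OAT-1746, 2.44 and 2.93 in anti-PD-1, and 3.19, 2.77 and 3.62 in COMB. For Ska2 the 4 groups overlapped, and the fold change in OAT-1746 against CTR was -0.01 (SE 0.30).

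The Ndc80 complex is the main microtubule receptor of the kinetochore, and Spc24 and Spc25 anchor it to the centromere. Spc24 (ENSMUSG00000074476, chr9:21755442-21760303) was at 2.4 and 2.35 CPM in CTR, 0.524 and 0.858 in OAT-1746, 1.11 and 1.97 in anti-PD-1, and 2.6, 2.18 and 2.48 in COMB. OAT-1746 was lowest without overlap, with replicate 1 the lower of its libraries, and CTR and COMB overlapped. It rose by 1.79 (SE 0.42) in COMB against OAT-1746, with an adjusted p of 0.0316 by edgeR's quasi-likelihood test with Benjamini-Hochberg adjustment and a range of 0.00303 to 0.217 over the alternatives. Among the leave-outs Spc24 was called without either anti-PD-1 library or COMB replicate 1 and lost with each of the 6 others, CTR replicates 1 and 2, OAT-1746 replicates 1 and 2 and COMB replicates 2 and 3, where the fold change lay between 1.49 and 2.20. Spc25 was at 3.06 and 2.47 CPM in CTR, 2.44 and 1.32 in OAT-1746, 2.58 and 2.87 in anti-PD-1, and 3.41, 3.43 and 3.33 in COMB. All 3 COMB libraries were above, and both OAT-1746 libraries below, every library of the other groups, with a fold change of -0.56 (SE 0.36) in OAT-1746 against CTR that neither edgeR nor DESeq2 called.

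**Figure D3:**
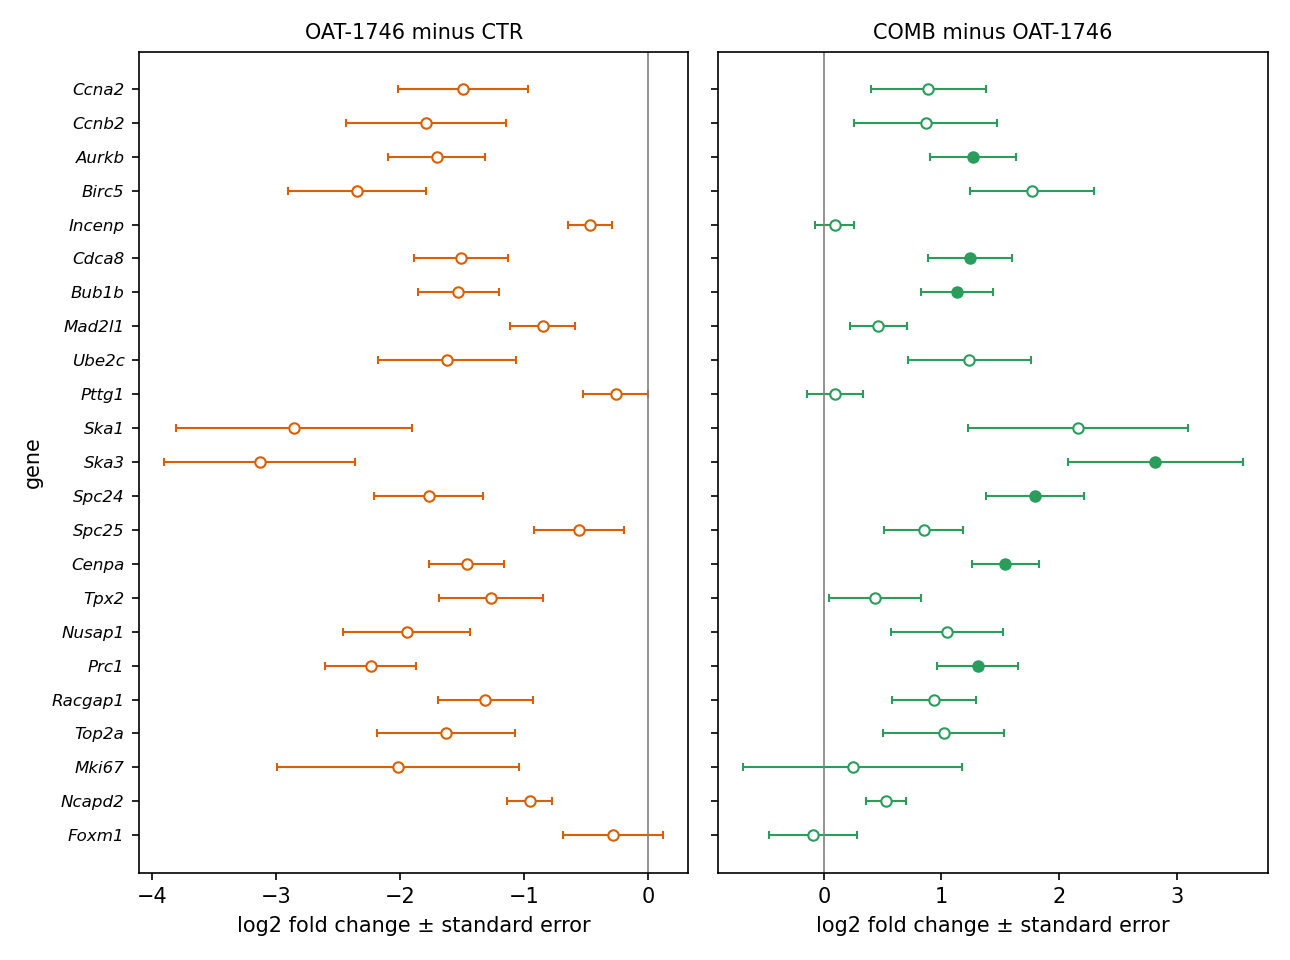
Log2 fold change (horizontal axis) with its standard error for 23 genes (vertical axis), OAT-1746 minus CTR on the left and COMB minus OAT-1746 on the right, with filled points called by edgeR at an adjusted p under 0.05. The 7 filled points, from 1.14 for Bub1b to 2.82 for Ska3, are all on the right.

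Spindle kinesins and spindle proteins build and focus the bipolar spindle. The 6 members had a median log2 fold change of -1.27 in OAT-1746 against CTR, -0.67 in anti-PD-1 against CTR, -0.87 in COMB against CTR and 0.66 in COMB against OAT-1746. The median lay at -0.644 and -2.841 from CTR in the OAT-1746 libraries, -1.018 and -0.2 in anti-PD-1, and -0.756, -0.896 and -0.736 in COMB. Every COMB library was thus above OAT-1746 replicate 2 and below OAT-1746 replicate 1. Tpx2, the activator of aurora A on spindle microtubules, was at 12.3 and 12.6 CPM in CTR, 7.86 and 2.46 in OAT-1746, 9.96 and 12.2 in anti-PD-1, and 7.05, 6.34 and 7.59 in COMB. The COMB libraries lay between the OAT-1746 libraries and below both anti-PD-1 libraries. Nusap1, a microtubule bundler near chromosomes, was at 8.05 and 9.88 CPM in CTR, 3.78 and 0.858 in OAT-1746, 2.86 and 2.87 in anti-PD-1, and 4.82, 4.95 and 4.61 in COMB. CTR was highest, COMB came next without overlap, and both anti-PD-1 libraries lay between the OAT-1746 libraries. The log2 fold change of Nusap1 was -1.95 (SE 0.51) in OAT-1746 against CTR and -1.64 in anti-PD-1 against CTR. DESeq2 called Kif2c, Tpx2 and Nusap1 lower with OAT-1746 (7.88% of the genes it tested), and without OAT-1746 replicate 1 edgeR called all 6, beside 28.2% of all genes in either direction.

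The central spindle and cytokinesis members bundle antiparallel microtubules and place the contractile ring. Over 7 members the median log2 fold change was -1.18 in OAT-1746 against CTR, -0.59 in anti-PD-1 against CTR, -0.69 in COMB against CTR and 0.49 in COMB against OAT-1746. The median lay at -0.692 and -2.06 from CTR in the OAT-1746 libraries, -0.945 and -0.466 in anti-PD-1, and -0.689, -0.705 and -0.522 in COMB. OAT-1746 replicate 1 was thus within the range of COMB, and replicate 2 was below it. Prc1, the bundler of antiparallel microtubules (ENSMUSG00000038943, chr7:80294450-80316259), was at 10.6 and 12.1 CPM in CTR, 3.43 and 1.37 in OAT-1746, 5.02 and 5.18 in anti-PD-1, and 6.3, 6.2 and 5.39 in COMB. No group overlapped with another: CTR was highest, COMB next, then anti-PD-1, and OAT-1746 was lowest. Its log2 fold change in OAT-1746 against CTR was -2.24 (SE 0.37), the smallest adjusted p of the 50 in that comparison at 0.06 by edgeR's quasi-likelihood test with Benjamini-Hochberg adjustment, and edgeR called it without OAT-1746 replicate 1 or COMB replicate 1. Prc1 rose by 1.31 (SE 0.34) in COMB against OAT-1746, with an adjusted p of 0.0388 by edgeR's quasi-likelihood test with Benjamini-Hochberg adjustment and a range of 0.00257 to 0.217 over the alternatives. That fold change was 0.81 without OAT-1746 replicate 2 and 2.12 without OAT-1746 replicate 1, and the call was kept only without OAT-1746 replicate 1 among the leave-outs. Racgap1, part of the centralspindlin complex, was at 19.7 and 20.3 CPM in CTR, 11.4 and 4.69 in OAT-1746, 11.6 and 16.3 in anti-PD-1, and 11.6, 18.6 and 16.0 in COMB. OAT-1746 replicate 1 was just below the lowest anti-PD-1 and COMB libraries, and CTR was highest. Kif20a, a kinesin of the cleavage site, was at 7.63 and 9.35 CPM in CTR, 5.18 and 1.03 in OAT-1746, 3.41 and 5.64 in anti-PD-1, and 5.19, 3.23 and 3.54 in COMB. CTR was highest and the treated groups overlapped. DESeq2 called Prc1, Anln and Racgap1 lower with OAT-1746 (7.88% of the genes it tested), and edgeR called 6 of the 7 without OAT-1746 replicate 1, beside 28.2% of all genes in either direction.

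Condensin and scaffold proteins compact the chromosomes. The 6 members had a median log2 fold change of -1.01 in OAT-1746 against CTR, -0.57 in anti-PD-1 against CTR, -0.52 in COMB against CTR and 0.48 in COMB against OAT-1746. Top2a, the topoisomerase that untangles sister chromatids, was at 40.8 and 35.9 CPM in CTR, 19.4 and 5.38 in OAT-1746, 14.4 and 36.4 in anti-PD-1, and 26.3, 19.9 and 29.2 in COMB. Anti-PD-1 replicate 1 lay between the OAT-1746 libraries and replicate 2 between the CTR libraries, and OAT-1746 lay below COMB. Ncapd2, a condensin subunit, was at 24 and 30.6 CPM in CTR, 15.5 and 12.6 in OAT-1746, 17.0 and 20.1 in anti-PD-1, and 20, 20 and 20.8 in COMB. CTR was highest and OAT-1746 lowest without overlap, with a log2 fold change between them of -0.96 (SE 0.19). Top2a and Ncapd2 overlap with small RNA genes on their own strand, so their counts are uncertain. Mki67, a coat of mitotic chromosomes, was at 10.8 and 6.41 CPM in CTR, 3.49 and 0.744 in OAT-1746, 0.767 and 8.28 in anti-PD-1, and 2.74, 1.06 and 3.76 in COMB. Anti-PD-1 replicate 1 was nearly as low as OAT-1746 replicate 2, and anti-PD-1 replicate 2 lay between the CTR libraries. Smc4, an ATPase subunit of condensin, was at 31.8 and 19.6 CPM in CTR, 15.9 and 8.58 in OAT-1746, 10.8 and 29.7 in anti-PD-1, and 19.1, 11.4 and 19.4 in COMB. Both OAT-1746 libraries, the 3 COMB libraries and anti-PD-1 replicate 1 were below both CTR libraries, and anti-PD-1 replicate 2 lay between them. DESeq2 called Top2a and Ncapd2 lower with OAT-1746 (7.88% of the genes it tested), and edgeR called these and Ncapg without OAT-1746 replicate 1, beside 28.2% of all genes in either direction.

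Foxm1, the transcription factor that binds the promoters of many of these genes, was at 5.47 and 4.53 CPM in CTR, 5.41 and 2.8 in OAT-1746, 2.86 and 5.92 in anti-PD-1, and 3.71, 4.22 and 3.62 in COMB. COMB lay below both CTR libraries, and every other pair of groups overlapped. Its log2 fold change was -0.28 (SE 0.41) in OAT-1746 against CTR and 0.127 without OAT-1746 replicate 2, -0.18 in anti-PD-1 against CTR, -0.38 in COMB against CTR and -0.09 in COMB against OAT-1746. Foxm1 overlaps with Tex52 and Gm44596 on the same strand, so its counts are uncertain. Neither edgeR nor DESeq2 called it in any of the 5 comparisons.

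Within groups, the differences between libraries were set against mRNA length. Over the 50 genes they correlated with it in 4 of the 6 pairs of libraries. Between the OAT-1746 libraries, and between COMB replicates 1 and 3, the correlation was weak over the 50 genes and stronger over all genes tested. Across the 50 genes, the log2 difference of anti-PD-1 replicate 1 minus replicate 2 correlated with log2 mRNA length at r = -0.606 (-0.22 over all genes tested), and that of COMB replicate 2 minus COMB replicate 1 at r = -0.613 (-0.426). COMB replicate 2 minus replicate 3 gave r = -0.606 (-0.289), CTR replicate 1 minus replicate 2 gave 0.461 (0.102), and OAT-1746 replicate 2 minus replicate 1 gave 0.064 (0.213). COMB replicate 1 minus replicate 3 gave 0.054 (0.26). These 6 correlations are across genes, which are not independent replicates, and carry no p-value. The 7 members of 5000 bases or longer had a median difference of -1.33 between the anti-PD-1 libraries, -0.52 for COMB replicate 2 minus replicate 1 and -0.55 for replicate 2 minus replicate 3, while the 18 members under 2500 bases had -0.32, 0.35 and 0.15. For OAT-1746 replicate 2 minus replicate 1 the long members had -0.65 and the short ones -1.73, so the long members were less reduced there. The medians were -0.34 and -0.12 for COMB replicate 1 minus replicate 3, and 0.23 and -0.24 for CTR replicate 1 minus replicate 2. Mki67, with 10061 bases, and Cenpf, with 11130 bases, had the lowest levels of their groups in anti-PD-1 replicate 1 and COMB replicate 2. Between groups, the correlation of log2 fold change with log2 mRNA length over the 50 members was 0.194 in OAT-1746 against CTR (0.259 over all genes), 0.155 in anti-PD-1 against CTR (-0.008), -0.353 in COMB against CTR (-0.161), -0.413 in COMB against OAT-1746 (-0.364) and -0.365 in the interaction (-0.295). These too are across genes, which are not independent, and carry no p-value. After the loess correction edgeR called 4 members in COMB against OAT-1746, 3 of them shared with the 7, beside 9.57% of all genes in either direction.

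**Figure D4:**
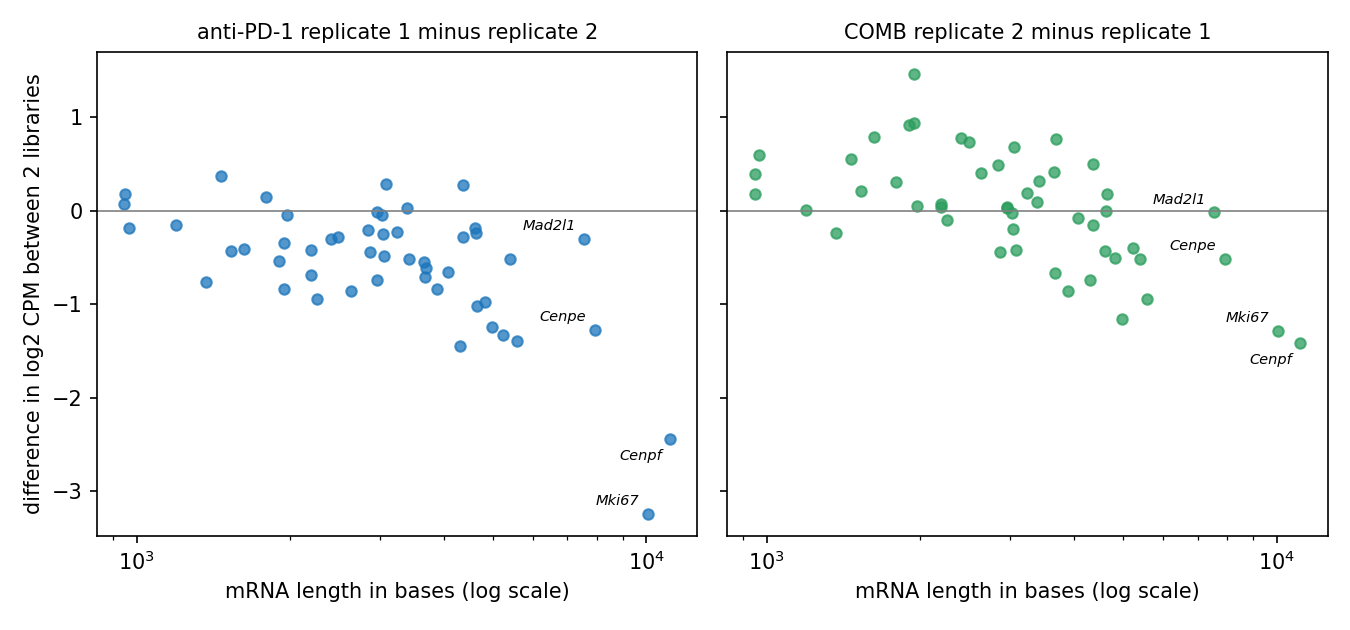
Difference in log2 CPM between 2 libraries of a group (vertical axis) against mRNA length in bases on a log scale (horizontal axis), 1 point per member. The longest members, Cenpf and Mki67, are lowest in both panels, with r = -0.606 between the anti-PD-1 libraries and r = -0.613 between COMB replicates 2 and 1.

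Related genes outside the list were measured for comparison. Of 33 DNA replication genes, 32 were lower in OAT-1746 than in CTR, 23 at an unadjusted p under 0.05 (16.2% of all genes) and 18 by DESeq2 (7.88% of the genes it tested), with 0 called by edgeR and a median of -0.92, and in COMB against OAT-1746 edgeR called 8 (15.8% of all genes in either direction). Their summed level was 897 and 849 CPM in CTR, 605 and 391 in OAT-1746, 648 and 759 in anti-PD-1, and 697, 814 and 782 in COMB, with Pcna the most abundant. Among mitotic genes not on the list, 20 of 21 kinesin, spindle and cytokinesis genes tested were lower in OAT-1746 than in CTR (median -1.20, 10 at an unadjusted p under 0.05, 7 by DESeq2), against the same shares of all genes, 16.2% and 7.88%. The other checkpoint and cohesion genes had a median of -0.64 (11 of 12 lower, 4 at an unadjusted p under 0.05, 3 by DESeq2), the other kinetochore and centromere genes -0.37 (20 of 27, 7 and 2) and the other condensin genes -0.26 (3 of 4, 2 and 0). The APC/C subunits had -0.13 (10 of 15 lower, 3 and 1), the DREAM, MuvB, E2F and NF-Y regulators -0.10 (13 of 21, 5 and 5), the CDK inhibitors and mitotic brakes -0.13 (9 of 16, 3 and 1), and the G1 and S cyclins and kinases -0.41 (6 of 9, 3 and 3). At an unadjusted p under 0.05, 4 of the DREAM, MuvB, E2F and NF-Y regulators, 3 of the CDK inhibitors and brakes, 1 kinetochore or centromere gene and 1 condensin gene were higher in that comparison, as were 16.1% of all genes. DESeq2 called 4 of these regulators and 3 of the CDK inhibitors and brakes higher (8.56% of the genes it tested). edgeR called 0 genes of these 8 lists there. In COMB against OAT-1746 it called 1 kinesin, spindle or cytokinesis gene, 4 DREAM, MuvB, E2F or NF-Y regulators, 1 APC/C subunit, 1 CDK inhibitor or brake and 1 G1 or S gene, and 0 in the other lists, beside 15.8% of all genes.

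In both OAT-1746 libraries and in COMB replicate 1, the summed microglia markers were above, and the summed monocyte and macrophage markers below, both CTR libraries. The summed level of the members was below both CTR libraries in every treated library. Of 9 microglia markers 9 lay above CTR in OAT-1746, all 9 at an unadjusted p under 0.05 (16.1% of all genes were higher) and 8 by DESeq2 (8.56% of the genes it tested), with 0 called by edgeR. Their summed level was 9790.0 and 15800.0 CPM in CTR, 21840.0 and 27580.0 in OAT-1746, 14840.0 and 12590.0 in anti-PD-1, and 18250.0, 13050.0 and 12470.0 in COMB, with Cx3cr1 the most abundant and none at 0. Of 12 monocyte and macrophage markers 12 were lower, 6 at an unadjusted p under 0.05 (16.2% of all genes were lower) and 6 by DESeq2 (7.88%), with 0 called by edgeR. Their sum was 14030.0 and 12550.0 CPM in CTR, 9390.0 and 2046 in OAT-1746, 12550.0 and 15040.0 in anti-PD-1, and 10340.0, 12680.0 and 13310.0 in COMB, with Tgfbi the most abundant and S100a4 at 0 in OAT-1746 replicate 2. That library was thus lowest in the 50 genes and in the monocyte and macrophage markers and highest in the microglia markers. Library, treatment and cell composition cannot be told apart there, and the part of the markers in the result was not tested. Fewer dividing cells and less RNA per cell cannot be told apart in bulk.

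**Figure D5:**
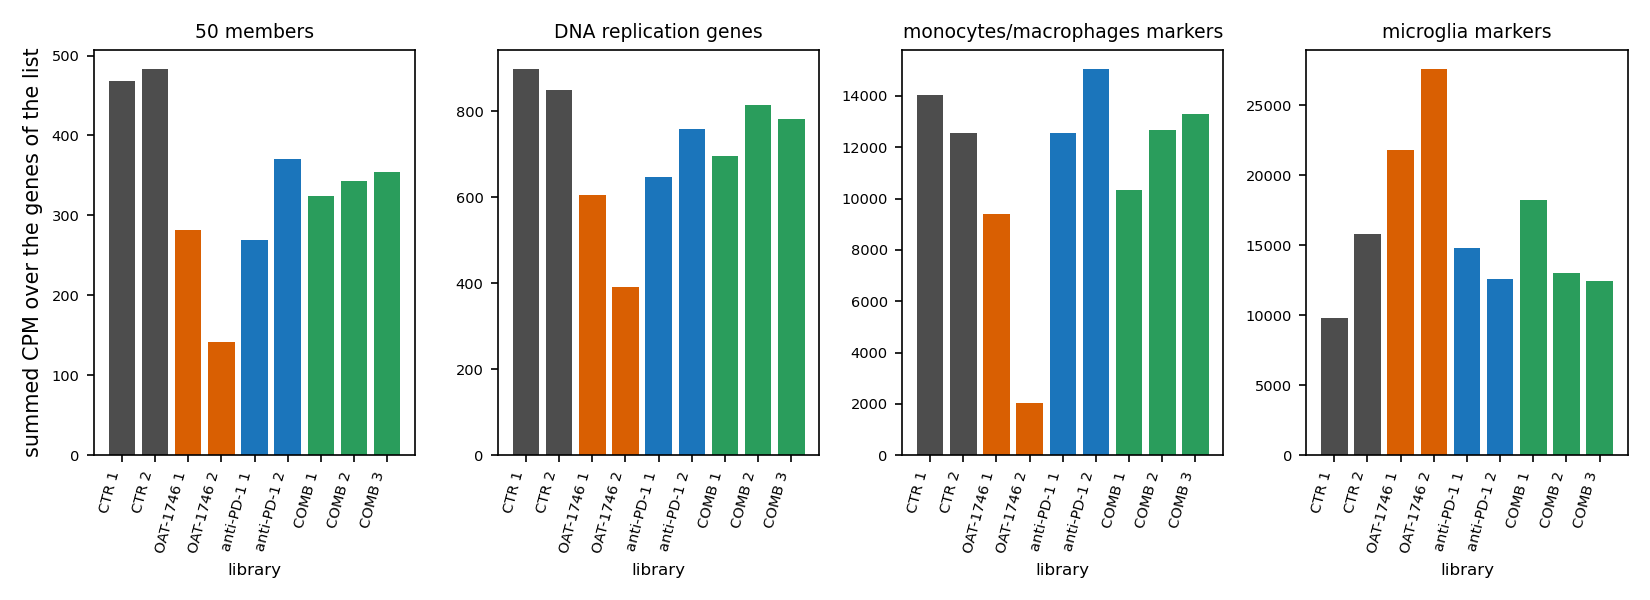
Summed CPM (vertical axis, from 0) of the 50 members and of lists of other genes in each of the 9 libraries (horizontal axis), 1 bar per library coloured by group. OAT-1746 replicate 2 has the lowest sum of the 50 members, 142 CPM, and the highest of the microglia markers, 27580.0 CPM.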

How the data were processed

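RNA-seq was measured in 9 libraries of sorted CD11b+ cells. Reads had been trimmed (Trimmomatic), aligned to the mm10 genome (STAR), checked for duplicates (Picard) and counted as pairs per gene (HTSeq, reverse stranded, mapping quality of at least 10) by the authors. The deposited values are these raw counts, with no normalization. Libraries were grouped by title. For anti-PD-1 replicate 2 the treatment label gives a different target, and the title was followed. Other experiments of the study were not used here.

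Of 53801 genes, 53620 matched GENCODE M21 and 181 did not. The table has no line that names no gene. Protein-coding genes (21890) that passed filterByExpr in edgeR 4.0.16 (minimum count 10, 4 groups) numbered 12538. R 4.3.3 was used, with TMM scaling and a quasi-likelihood fit of 4 group means over all 9 libraries (common BCV 0.214, prior df 4.15). Benjamini-Hochberg adjustment ran over all genes tested, two-sided, and a call is an adjusted p under 0.05. Each treated group was compared with CTR and COMB with OAT-1746, and the interaction was tested. Standard errors are the absolute log2 fold change divided by the square root of F. Libraries held 13048075 to 18796479 counts, and levels are CPM, log2 CPM with a prior count of 2, or RPKM over the mRNA length of the principal coding transcript. Figures used Python 3.11.15 and matplotlib 3.10.9. The scripts were tested on simulated data.

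Values in every library are given for the 2 members of each structure with the highest mean RPKM (1 for the transcription factor), the 5 with the largest change in OAT-1746 against CTR, any called member and up to 5 of opposite sign (0 were found). That made 23 genes. The length used for RPKM was chosen after the data were seen. With summed exon length 11 of the 17 picks by RPKM are shared, and Plk1, Aurkb, Cdc20, Ska2, Kif20a and Smc4 would enter, so their values are given too. Other genes named singly were chosen after their values were seen. The members and all lists were chosen with earlier results of these data known. The lists are 8 of mitotic and cell cycle regulators, DNA replication genes and 15 of cell types and states. From the microglia list 1 gene is not reported here, for a reason other than its values. Motifs were sought in RefSeq promoters of GRCm38.p6, and 10 members had no promoter there (Ccna2, Cdc25c, Aurkb, Incenp, Ska1, Spc24, Tpx2, Kif20a, Smc4 and Foxm1).

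Alternatives were DESeq2 1.42.0, DESeq2 size factors, library size only, no low-count filter, all gene types, a replicate block, limma 3.58.1 voom with sample quality weights, only the groups compared, and each library left out. Added after the data were seen were a loess correction for mRNA length and GC content (span 0.5), dropping anti-PD-1 replicate 1 and COMB replicate 2 together, and DESeq2 on the filtered genes. The last was the first form of DESeq2 run. The annotation file was also switched after a first look, to that of the main chromosomes.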

Additional observations from a re-analysis of the deposited data

How the results depend on the processing

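Calls by edgeR were 0 in OAT-1746 against CTR, 7 in COMB against OAT-1746 and 0 in the interaction. DESeq2 called 24, 13 and 15 (16.4%, 25.1% and 8.87% of the genes it tested in either direction), and 25, 13 and 15 when run on the filtered genes (17.3%, 25.4% and 9.05%). With no low-count filter edgeR called 11 in OAT-1746 against CTR (3.65% of all genes), 9 in COMB against OAT-1746 (14.1%), the 7 among them, and 1 in the interaction (0.908%). Sample quality weights in limma voom gave 5 calls in COMB against OAT-1746, 3 of them shared with the 7 (Bub1b, Cenpa and Prc1), beside 22.4% of all genes, and 6 in the interaction, beside 3.41%. It put 20 and 15 members at an unadjusted p under 0.05 in anti-PD-1 and COMB against CTR (6.52% and 14.9% of all genes). With only the groups compared these were 23 and 18 (6.6% and 10.1%), and COMB against OAT-1746 had 0 calls, from fewer libraries. The loess correction gave 14 in anti-PD-1 against CTR (6.26%) and 4 calls in COMB against OAT-1746 (9.57%). Dropping anti-PD-1 replicate 1 and COMB replicate 2 together gave 0 in anti-PD-1 against CTR (2.13% of all genes), 2 in COMB against CTR (3.56%), 0 calls and 11 at an unadjusted p under 0.05 in COMB against OAT-1746 (22.1%), and 11 in the interaction (12.2%), from fewer libraries. DESeq2 size factors, library size only and all gene types changed none of the counts of calls. Library size only shifted the median of all genes to 0.10 in OAT-1746 against CTR and -0.11 in the interaction. The loess correction and the paired drop were chosen after seeing the data. The cause was not tested.

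With the replicate number as a replicate block, 4 members in anti-PD-1 against CTR, 2 in COMB against CTR and 10 in COMB against OAT-1746 were at an unadjusted p under 0.05 (2.1%, 2.62% and 19.8% of all genes in either direction), and COMB against OAT-1746 had 0 calls, as had the other 4 comparisons. Same-numbered libraries did not deviate together (correlations of -0.32 to 0.083 between groups), and the labels tie them by nothing but the number.

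Over the 9 leave-outs, calls ran from 0 to 36 in OAT-1746 against CTR, 0 to 35 in COMB against OAT-1746 and 0 to 34 in the interaction, and the share of all genes called from 0 to 28.2%, 0.04% to 31.4% and 0 to 21.3%. The medians ran from -2.25 to -0.80, 0.29 to 1.78 and 0.97 to 2.58. Members at an unadjusted p under 0.05 ran from 22 to 43 in OAT-1746 against CTR, 2 to 24 in anti-PD-1 against CTR, 2 to 16 in COMB against CTR, 10 to 38 in COMB against OAT-1746 and 15 to 39 in the interaction, and the share of all genes from 14.6% to 41.6%, 2.59% to 7.56%, 3.58% to 9%, 19.4% to 43.8% and 17.2% to 37%. A group left with 1 library is assumed to vary like the others. Pttg1 in OAT-1746 against CTR ran from -0.692 to 0.079, reversed at 0.015 without CTR replicate 2, at 0.079 without OAT-1746 replicate 2 and at 0.178 with the loess correction. Foxm1 ran from -0.836 to 0.127, reversed without OAT-1746 replicate 2. The cause was not tested.

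With 2 libraries in most groups, calls rest on the shared spread, and 43 of the 50 members were lowest in OAT-1746 replicate 2 (31.6% of all genes). Members under 1 CPM rest on few counts.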

Other observations

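The other marker lists had these values in OAT-1746 against CTR, with 0 genes called by edgeR in each. Of all genes, 16.2% were lower and 16.1% higher at an unadjusted p under 0.05, and DESeq2 called 7.88% and 8.56% of those it tested. Of 10 NK markers 4 were lower, 0 at an unadjusted p under 0.05 and 0 by DESeq2, and their sum was 78.6 and 83.4 CPM in CTR, 112 and 26.8 in OAT-1746, 333 and 203 in anti-PD-1, and 86.4, 172 and 184 in COMB. Of 8 glioma markers tested 4 were lower, 2 at an unadjusted p under 0.05 and 1 by DESeq2, and the sum, mostly Cd44, was 321 and 319 CPM in CTR, 220 and 72.4 in OAT-1746, 298 and 344 in anti-PD-1, and 247, 275 and 292 in COMB. Cd44 alone was at 302 and 289 CPM in CTR and 189 and 47.6 in OAT-1746, so the sum mostly follows this 1 gene. The median log2 fold change of the 8 was 0.005. The median log2 fold change was 0.44 for 6 border-associated macrophage markers, 0.75 for 10 neutrophil markers, 0.43 for 7 T cell markers, -0.44 for 3 B cell markers, -0.40 for 8 dendritic cell markers and 0.80 for 5 erythroid markers. It was 0.29 for 6 oligodendrocyte markers, 0.19 for 6 astrocyte markers, 0.57 for 6 endothelial markers, 0.93 for 10 immediate early genes and 1.03 for 6 mitochondrial genes. In COMB against OAT-1746, where edgeR called 15.8% of all genes in either direction, it called 9 of the 10 immediate early genes (10 lower, median log2 fold change -2.23), 3 of the 6 mitochondrial genes (6 lower, -1.41), 2 of the 9 microglia markers (9 lower, -0.71) and 1 of the 10 neutrophil markers (7 lower, -0.18). It called 3 of the 6 astrocyte markers (1 lower, 0.95), 2 of the 12 monocyte and macrophage markers (1 lower, 0.81) and 2 of the 8 glioma markers (4 lower, -0.08). Their part in the result was not tested.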
